A study of Mus musculus with 16 samples.

Results

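The genes described here encode 42 enzymes of glycolysis, of the step from pyruvate into the mitochondrion and of the citric acid cycle in mouse islets. They were taken from the table of 52636 genes by matching the Ensembl identifier of each row to a member symbol, and all 42 were among the 18587 genes that passed the filter on low counts. RNA was sequenced from islets of male mice aged 12 weeks (strain C57BL/6JRj in the labels, C57BL/6NRj in the study's methods) after 10 days of culture in 4 conditions. Islets were left without additions (control), or were exposed to 50 pg/mL of the cytokine IL-1β, to 0.2 mM sodium butyrate, a fatty acid that bacteria of the gut release, or to both agents at these doses. All conditions shared the same medium with human serum, and 4 libraries, each from 500 islets pooled from several mice, were made for each condition, so a replicate is a pool and not a mouse.

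Glycolysis splits glucose into pyruvate in the cytosol, and phosphofructokinase and the enzymes that make and remove its activator fructose 2,6-bisphosphate set its pace. In beta cells glucokinase admits glucose, and most of the pyruvate enters the mitochondrion, where it feeds the citric acid cycle either through pyruvate dehydrogenase or through pyruvate carboxylase. The ATP and the other signals made there couple glucose to insulin release. Beta cells are known for keeping lactate dehydrogenase and the monocarboxylate transporters low.

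A library held 18635943 to 25955943 counts, and a member had between 22 and 16112 counts in a library, with at least 100 counts in every library for 40 of the 42. The members together took 0.391% to 0.493% of the counts of a library. Levels are given as CPM, a gene's counts scaled to a common library size after adjustment by the trimmed mean of M-values (TMM), and the coefficient of variation between the 4 libraries of a condition had a median of 5.32% over members and conditions. Defining markers of beta, alpha and delta cells were present in every condition, and the summed level of 10 beta cell markers was 215343 to 238099 CPM in control islets. In these bulk samples fewer cells of a type and less RNA per cell cannot be told apart. Replicate 2 of the IL-1β islets was high for glycolysis: it was the highest of its condition for 13 of 17 glycolytic members, with a median of 1.13 times the mean of the condition. The main IL-1β rises in which it was the highest are therefore given with and without it. Replicate 1 of the butyrate islets was the highest for 12 of the 17, with a median of 1.07 times the mean of its condition. Replicate 4 was the lowest for 11 in control islets, 10 with IL-1β, 10 with both agents and 11 with butyrate. How the counting treated strand is not given in the sources used here, and exons of Pfkp, Pdha1, Gpi1 and Me3 overlap those of genes on the other strand. These include Pitrm1 for Pfkp (748 bases, 5.58% of its exons), Map3k15 for Pdha1 (603 bases, 16.1%) and Gm26762 for Gpi1 (741 bases, 11.5%), the last of which had 9 to 32 counts in a library. Gapdh has 77 near-identical copies in the genome, whose counts together came to 5.58% to 9.05% of its own, so reads may be split among them.

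In control islets the abundance of these mRNAs, compared between genes only after division by exon length (CPM per kb), spanned a wide range. The highest were Aldoa, the muscle-type aldolase, at 137 ± 7.01 CPM per kb (SD, n = 4), Pkm, the pyruvate kinase of most tissues, at 122 ± 8.66, Mdh1, the cytosolic malate dehydrogenase, at 108 ± 4.54, and Fh1, fumarase, at 77.0 ± 7.22. The ranges of Aldoa and Pkm overlapped, as did those of Pkm and Mdh1, whereas Fh1 lay below all 3. At the low end stood the mitochondrial malic enzyme Me3 at 0.123 ± 0.0266 CPM per kb, the hexokinase Hk2 at 0.403 ± 0.126, Pfkfb3 at 1.41 ± 0.116 and Pfkp at 2.18 ± 0.163. None of these 4 lowest genes overlapped its neighbour in the order. Most families had a leading isozyme. Of the phosphofructokinase mRNA per kb, Pfkm, the muscle-type subunit, made up 70.4 ± 1.01%, Pfkl, the liver type, 24.2 ± 1.01% and Pfkp, the platelet type, 5.37 ± 0.267%. Aldoa made up 97.8 ± 0.108% of the aldolase pair with Aldoc, Pfkfb2 made up 90.1 ± 1.19% of the pair with Pfkfb3, and Me2 made up 97.0 ± 0.756% of the pair with Me3. The 4 pyruvate dehydrogenase kinases were close to equal, between 23.2% for Pdk3 and 27.1% for Pdk4, and their order depends on the length used, since with the longest annotated transcript Pdk4 came to 21.4% and was the lowest.

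Pfkp, Pfkfb3, Pdk1 and Pdk4 encode regulated steps of the pathway on which the comparisons turn, and the windows before their transcription starts are shown because each holds the core of the hypoxia response element, the letters ACGTG or GCGTG that the factors of the hypoxia response are known to bind, here in capitals. They are the 250 bases before the RefSeq start (GRCm38.p6), at chr13:6648772-6649021, minus strand, for Pfkp, chr2:11553930-11554179, minus strand, for Pfkfb3, chr2:71872974-71873223, plus strand, for Pdk1 and chr6:5496279-5496528, minus strand, for Pdk4, each written 5′ to 3′ along the gene.
Pfkp: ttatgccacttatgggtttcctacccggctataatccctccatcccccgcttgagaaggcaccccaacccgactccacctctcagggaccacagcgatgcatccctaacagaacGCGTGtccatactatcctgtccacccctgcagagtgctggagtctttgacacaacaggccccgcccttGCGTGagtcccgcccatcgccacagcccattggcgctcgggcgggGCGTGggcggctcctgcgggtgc
Pfkfb3: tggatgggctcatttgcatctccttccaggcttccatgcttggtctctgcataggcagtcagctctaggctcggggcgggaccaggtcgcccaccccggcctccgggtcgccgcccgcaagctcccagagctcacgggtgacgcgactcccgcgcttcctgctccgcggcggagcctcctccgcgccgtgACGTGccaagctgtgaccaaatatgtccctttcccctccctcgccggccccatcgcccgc
Pdk1: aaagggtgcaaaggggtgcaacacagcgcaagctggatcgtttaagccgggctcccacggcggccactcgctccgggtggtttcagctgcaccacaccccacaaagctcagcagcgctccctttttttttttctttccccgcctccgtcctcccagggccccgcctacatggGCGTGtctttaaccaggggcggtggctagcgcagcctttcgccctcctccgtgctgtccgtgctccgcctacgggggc
Pdk4: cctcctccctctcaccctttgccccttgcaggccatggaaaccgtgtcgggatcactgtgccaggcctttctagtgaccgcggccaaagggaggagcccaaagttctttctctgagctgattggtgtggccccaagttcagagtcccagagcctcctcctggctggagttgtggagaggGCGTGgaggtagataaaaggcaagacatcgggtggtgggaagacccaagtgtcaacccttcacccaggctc
The window of Pfkp holds 3 cores and those of Pfkfb3, Pdk1 and Pdk4 hold 1 each. Both strands were searched, and a window was found for 40 of the 42 members, all but Me2 and Idh3a. The core was present in 26 of the 40 windows (65%) and in 38.6% of all 32851 windows of this length. The GC box GGGCGG was likewise present in 57.5% of the member windows and 32.7% of all, the CCAAT box (letters CCAAT) in 47.5% and 33.8%, and the E-box CACGTG, which contains the hypoxia core, in 7.5% and 6.02%. These counts describe letters and not binding. The 4 genes shown did not share a direction: Pfkp, Pfkfb3 and Pdk1 rose with IL-1β and Pdk4 was not called (-0.12, adjusted p = 0.200). Of the other members with a core, Gapdh, Eno1 and Suclg1 were called as raised by IL-1β and Pfkfb2, Pcx and Idh2 as lowered. With butyrate alone Pfkp and Pdk4 rose, Pdk1 fell and Pfkfb3 was not called. With butyrate added to IL-1β Pdk4 rose and Pdk1 fell, and Pfkp and Pfkfb3 were not called.

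**Figure D1:**
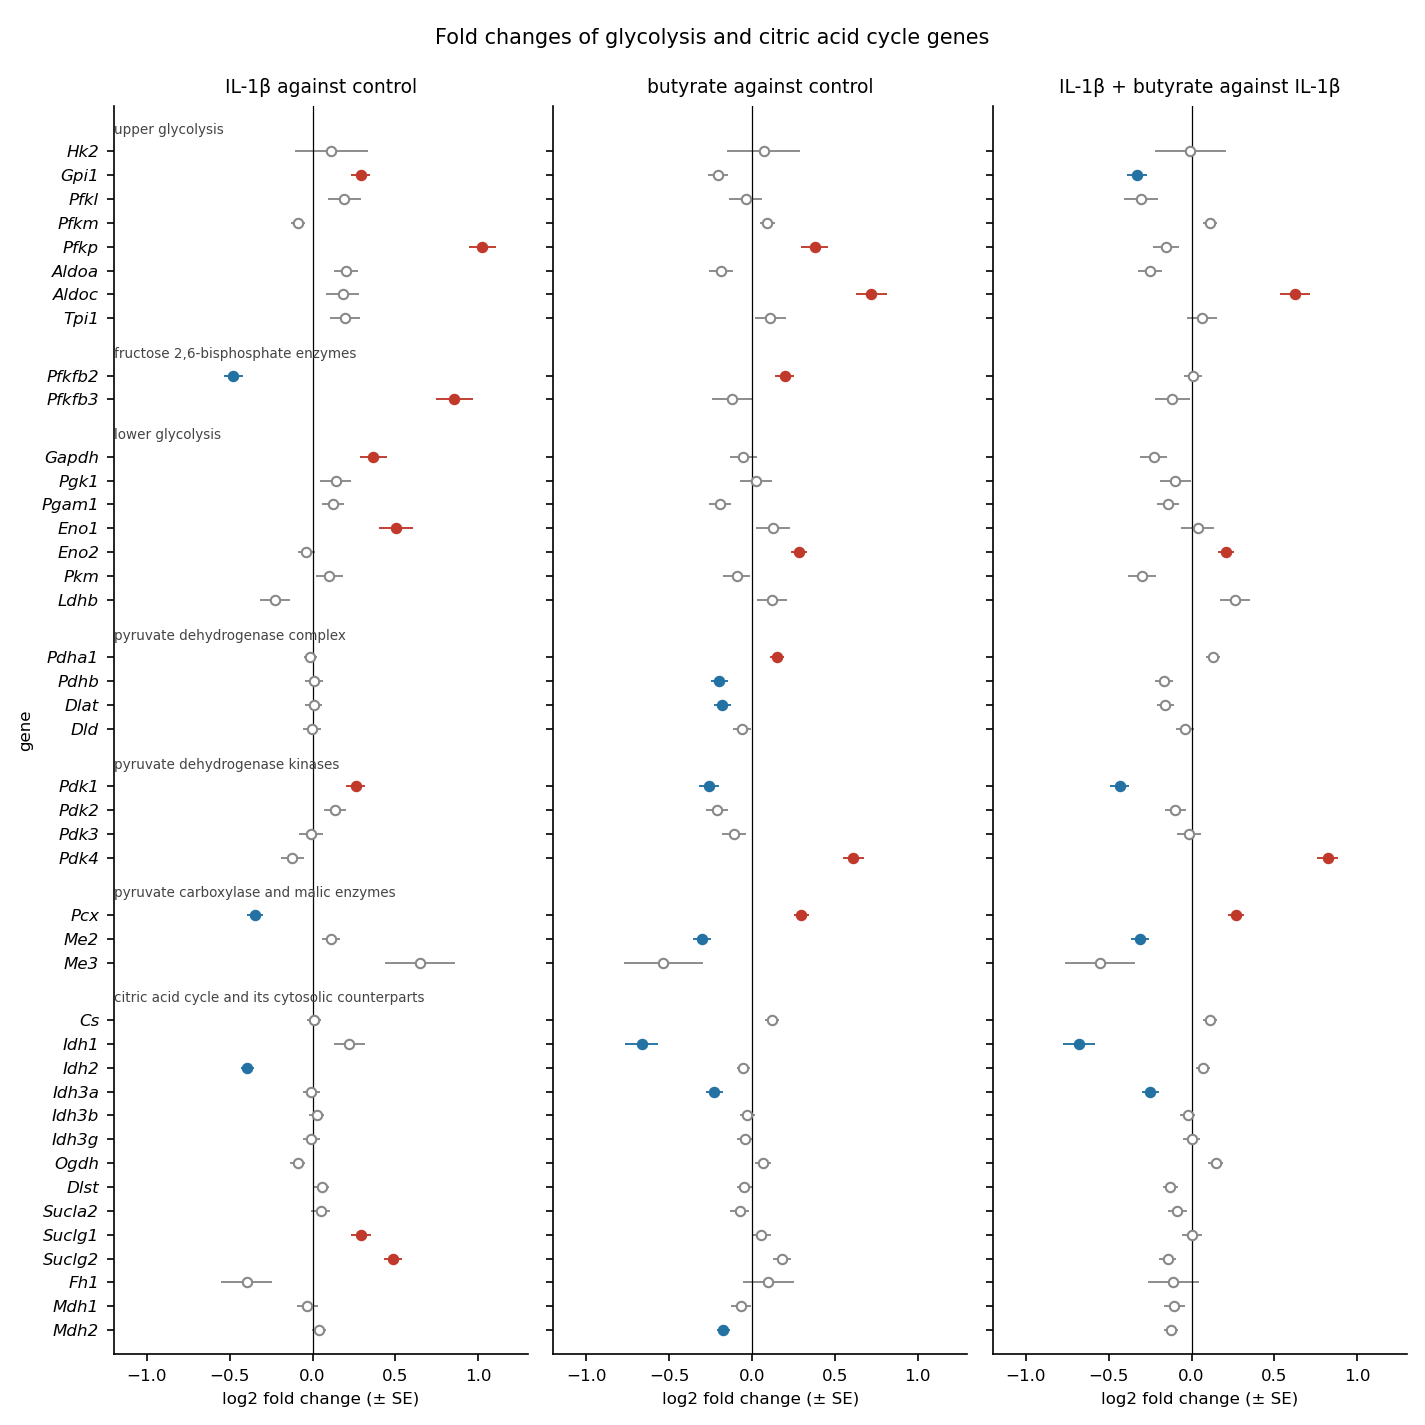
Log2 fold changes (x axis, with standard errors) of the 42 genes (y axis, grouped by role) for IL-1β against control, butyrate against control and IL-1β plus butyrate against IL-1β. Filled points are called at an adjusted p under 0.01 (red raised, blue lowered) and open points are not: 11, 14 and 9 genes were called, and the largest rise was that of Pfkp with IL-1β, at 1.03.

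IL-1β against control asks what the cytokine alone did to the expression of these genes. It raised 8 and lowered 3 of the 42 members (edgeR quasi-likelihood test, Benjamini-Hochberg adjusted p under 0.01), which is 26.2% of them, where 17.8% of all genes tested were called, 11.2% raised and 6.59% lowered. Among genes with a mean of at least 10 CPM, a better match for these abundant mRNAs, 23.4% of all and 28.2% of the 39 members were called, so the count of members was close to the background. The conditions did not overlap for 11 of the 42 members (26.2%) and for 24.7% of all genes. The median log2 fold change was 0.05 for the members and -0.03 for all genes, and 29 of the 42 lay within 0.25 of no change. The largest changes were at the control point of glycolysis, where Pfkp and Pfkfb3 rose and Pfkfb2 fell, the largest 2 rises and the largest fall. At the other steps of glycolysis Gpi1, Gapdh and Eno1 rose, and in the mitochondrion the succinyl-CoA ligase genes Suclg1 and Suclg2 and the kinase Pdk1 rose while Idh2 and Pcx fell.

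Pfkp (ENSMUSG00000021196, chr13:6579768-6648777, GRCm38) encodes a subunit of phosphofructokinase, which carries out the committed step of glycolysis. It was at 32.3, 28.1, 28.8 and 27.4 CPM in the 4 control libraries and at 59.1, 66.9, 57.1 and 54.4 CPM with IL-1β. Every IL-1β library lay far above every control library, and Pfkp rose 2.04-fold (log2 fold change 1.03, SE 0.08, adjusted p = 2.6e-09), the only member that changed by at least 2-fold. Without IL-1β replicate 2, the highest of the 4, the log2 fold change was 0.96. Its share of the phosphofructokinase mRNA went from 5.37 ± 0.267% to 10.4 ± 0.277%, while Pfkm (-0.09, adjusted p = 0.143) and Pfkl (0.19, adjusted p = 0.186) were not called, and it remained the least abundant of the 3. The neighbour on the other strand, Pitrm1, went the other way, with a log2 fold change of -0.32.

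Pfkfb3 (ENSMUSG00000026773, chr2:11471433-11554077) and Pfkfb2 (ENSMUSG00000026409, chr1:130689182-130729253) encode bifunctional enzymes that make and break down fructose 2,6-bisphosphate, the Pfkfb3 enzyme being strongly biased to making it. Pfkfb3 was at 11.5, 10.8, 10.9 and 9.42 CPM in control islets and 18.9, 20.7, 17.3 and 20.2 CPM with IL-1β. Pfkfb2 was at 87.5, 88.8, 101 and 97.6 CPM in control islets and 66.4, 59.2, 72.8 and 70.8 CPM with IL-1β. The conditions did not overlap for either gene, and the genes moved in opposite directions: Pfkfb3 rose 1.81-fold (log2 fold change 0.86, SE 0.11, adjusted p = 3.2e-06) and Pfkfb2 fell to 0.718 of its control level (log2 fold change -0.48, SE 0.06, adjusted p = 1.5e-07). Without IL-1β replicate 2, the highest library for Pfkfb3, the log2 fold change of Pfkfb3 was 0.82. The share of Pfkfb3 in the pair, per kb, was 9.87 ± 1.19% in control islets and 21.6 ± 2.69% with IL-1β.

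Further down the pathway, Eno1, the widespread enolase, was at 80.5, 86.8, 81.1 and 76.4 CPM in control islets and 113, 144, 105 and 98.2 CPM with IL-1β (log2 fold change 0.50, SE 0.10, adjusted p = 0.00162). Replicate 2 of the IL-1β islets was well above the other 3, which themselves all lay above the control range, and without that library the log2 fold change was 0.38. Gpi1, the isomerase that follows glucose phosphorylation, was at 130.2, 127, 128 and 126 CPM in control islets and 153, 184, 144 and 144 CPM with IL-1β (log2 fold change 0.29, SE 0.06, adjusted p = 5.4e-04). The same library was again the highest, and the fold change without it was 0.20 on the log2 scale. Gapdh, the dehydrogenase that makes the NADH of glycolysis and is often used as a reference gene, ranged over 177 to 196 CPM in control islets and 208 to 287 CPM with IL-1β (log2 fold change 0.37, SE 0.08, adjusted p = 0.00177), and its log2 fold change was 0.26 without replicate 2. All 3 calls held without it. The neuronal enolase Eno2 was not called (-0.04, adjusted p = 0.642), and the share of Eno1 in the enolase pair was 60.5 ± 1.51% in control islets and 68.8 ± 4.47% with IL-1β.

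In the mitochondrion, Suclg2, the GTP-specific subunit of succinyl-CoA ligase, was at 24.0, 23.1, 24.1 and 23.5 CPM in control islets and 31.2, 34.1, 33.6 and 33.5 CPM with IL-1β (log2 fold change 0.49, SE 0.05, adjusted p = 4.6e-08). The libraries of each condition lay close together and the conditions were far apart. Without IL-1β replicate 2, the highest library, the log2 fold change of Suclg2 was 0.47. Suclg1, the subunit shared by both forms of the ligase, went from 78.9 to 88.1 CPM to 93.1 to 119 CPM (log2 fold change 0.29, SE 0.06, adjusted p = 3.4e-04, and 0.23 without replicate 2), while the ATP-specific subunit Sucla2 was not called (0.05, 95% confidence interval -0.06 to 0.16, adjusted p = 0.581). Per kb, Suclg2 made up 12.8 ± 0.601% of the ligase mRNA in control islets and 15.4 ± 1.25% with IL-1β, against 41.1 ± 1.15% and 36.4 ± 0.592% for Sucla2. The ligase was the only enzyme of the cycle proper with genes called as raised.

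Idh2 (ENSMUSG00000030541, chr7:80094846-80115392), the mitochondrial NADP-dependent isocitrate dehydrogenase, was at 128, 128, 131 and 130.3 CPM in control islets and 101, 98.7, 101 and 94.1 CPM with IL-1β (log2 fold change -0.39, SE 0.04, adjusted p = 2.4e-08). Its control libraries were nearly identical, and all IL-1β libraries lay below them. Pcx (ENSMUSG00000024892, chr19:4510472-4621752), the pyruvate carboxylase that refills the cycle, was at 114, 123, 126 and 119 CPM in control islets and 95.8, 88.7, 97.9 and 96.4 CPM with IL-1β (log2 fold change -0.35, SE 0.05, adjusted p = 1.8e-06). Replicate 2 of the IL-1β islets was the lowest of the 4 for Pcx, and no IL-1β library reached the control range. The pyruvate dehydrogenase complex itself was flat, with log2 fold changes of -0.01 to 0.01 for Pdha1, Pdhb, Dlat and Dld. None of these 4 had an unadjusted p under 0.05. Of its inhibitory kinases Pdk1 alone was called, at 57.5, 60.7, 59.3 and 54.6 CPM in control islets and 68.7, 76.5, 68.7 and 64.3 CPM with IL-1β (log2 fold change 0.26, SE 0.06, adjusted p = 0.00127), with a log2 fold change of 0.21 without replicate 2, the highest library.

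All 11 calls of IL-1β against control held in each of 23 alternatives for scaling, filter, test, replicate block and left-out library. Markers moved with the same contrast: the 10 beta cell markers summed to 138353 to 179997 CPM with IL-1β, with 8 lowered and 1 raised. Of the 10 macrophage markers 9 were raised, each by at least 2-fold, and 1, C1qa, was lowered, and the median log2 fold change of the 10 was 2.11. Their summed level went only from 128 to 142 CPM in control islets to 167 to 197 CPM, since C1qa made up most of it in control islets (99.6 to 124 CPM). The 8 duct cell markers went from 484 to 515 CPM to 675 to 773 CPM, with 4 of 7 tested raised. None of these markers was at 0 in all 16 libraries, and their part in the changes of the enzymes was not tested.

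**Figure D2:**
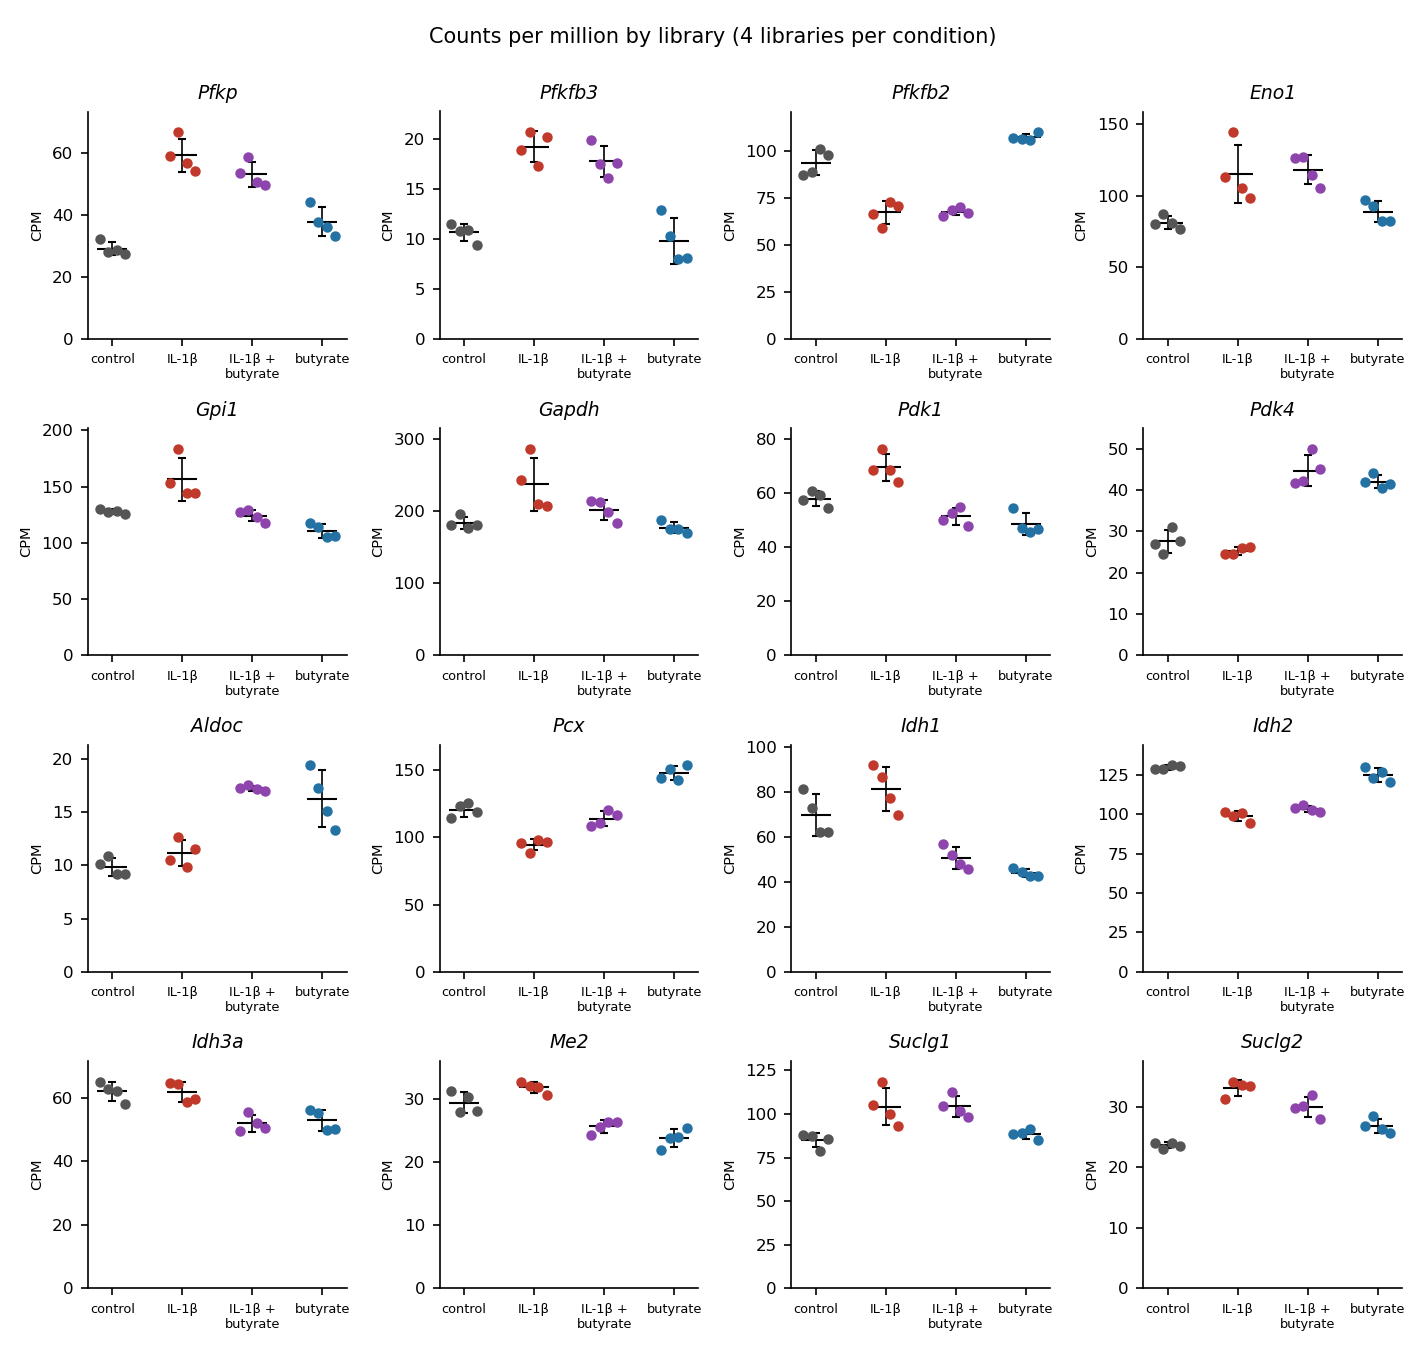
CPM (y axis, from 0) of 16 of the genes in each library, by condition (x axis), with the mean and SD as a line and bar and replicates 1 to 4 from left to right. Pfkp and Pfkfb3 are high in both conditions with IL-1β, Pdk4 and Aldoc are high in both conditions with butyrate and Idh1 is low there, and Pcx is lowest with IL-1β alone (88.7 to 97.9 CPM).

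Butyrate against control asks what the fatty acid did in islets without the cytokine. It raised 7 and lowered 7 members, 33.3% of the 42 where 19.9% of all genes were called (8.53% raised and 11.4% lowered), and 35.9% of the 39 members with at least 10 CPM where 27.4% of such genes were called. The conditions did not overlap for 21 members (30.1% of all genes did not), and the median log2 fold change was -0.04 for the members and 0.01 for all genes. The rises were led by Aldoc and Pdk4 and the falls by Idh1, and after these 3 and Pfkp the next largest called change was that of Me2, -0.30 on the log2 scale. Of the 4 subunits of the pyruvate dehydrogenase complex Pdha1 rose while Pdhb and Dlat fell, and Dld was not called. Among the enzymes of the cycle and their cytosolic counterparts, Idh1, Idh3a and Mdh2 were called as lowered and none as raised. Suclg2 and Cs were higher with butyrate without overlap but were not called (adjusted p = 0.0111 and 0.0322).

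Butyrate added to IL-1β, compared with IL-1β alone, asks what the fatty acid did in the presence of the cytokine. It raised 4 and lowered 5 members, 21.4% of the 42 where 19.5% of all genes were called (8.41% raised and 11.1% lowered), and 23.1% of the 39 better expressed members where 25.6% of such genes were called. The conditions did not overlap for 20 members (26.9% of all genes did not), and the median log2 fold change was -0.10 for the members and 0.01 for all genes. Pdk4, Aldoc, Pcx and Eno2 rose, and Idh1, Pdk1, Gpi1, Me2 and Idh3a fell. Of these 9 genes 8 were also called for butyrate against control (8 of 14 there), every one in the same direction, and the 2 comparisons share no library. Of all genes called for butyrate added to IL-1β 69.0% were called the same way without it, and of those called without it 67.7% were called with it, against 88.9% and 57.1% of the members.

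Pdk4 (ENSMUSG00000019577, chr6:5483351-5496309) encodes the pyruvate dehydrogenase kinase that is best known for its induction in fasting, when it shuts pyruvate out of the cycle. It was at 26.9, 24.5, 31.1 and 27.7 CPM in control islets and 42.04, 44.2, 40.5 and 41.4 CPM with butyrate. With IL-1β it was at 24.5, 24.4, 26.02 and 26.2 CPM, and with both agents at 41.6, 42.1, 50.0 and 45.2 CPM. Every library with butyrate lay above every library without it, and the rise was 1.53-fold without IL-1β (log2 fold change 0.61, SE 0.06, adjusted p = 4.5e-08) and 1.77-fold with it (log2 fold change 0.82, SE 0.06, adjusted p = 3.0e-10).

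Pdk1 (ENSMUSG00000006494, chr2:71873224-71903858), another kinase of the complex and a textbook target of the hypoxia response, moved the other way. It was at 54.4, 47.0, 45.5 and 46.9 CPM with butyrate, against 54.6 to 60.7 CPM in control islets (log2 fold change -0.26, SE 0.06, adjusted p = 0.00149), and at 50.1, 52.8, 54.9 and 47.8 CPM with both agents, against 64.3 to 76.5 CPM with IL-1β (log2 fold change -0.43, SE 0.06, adjusted p = 2.7e-06). Replicate 1 of the butyrate islets was the highest of its condition and lay just below the lowest control library, and the conditions did not overlap in either setting. Pdk2 was not called for butyrate with or without IL-1β (adjusted p = 0.271 and 0.0153), nor was Pdk3 (adjusted p = 0.901 and 0.283). Per kb, Pdk4 made up 27.1 ± 2.18% of the kinase mRNA in control islets, 23.7 ± 1.23% with IL-1β, 38.5 ± 1.98% with both agents and 39.5 ± 1.54% with butyrate, and Pdk1 made up 25.8 ± 1.19%, 29.4 ± 1.48%, 19.996 ± 0.595% and 20.5 ± 1.77% in the same order. The summed CPM per kb of the 4 kinases had means of 28.9 in control islets, 30.4 in islets with IL-1β, 30.4 with butyrate and 33.0 with both agents. With the longest transcript as the length Pdk4 went from 21.4% in control islets to 32.4% with butyrate, the same direction.

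**Figure D3:**
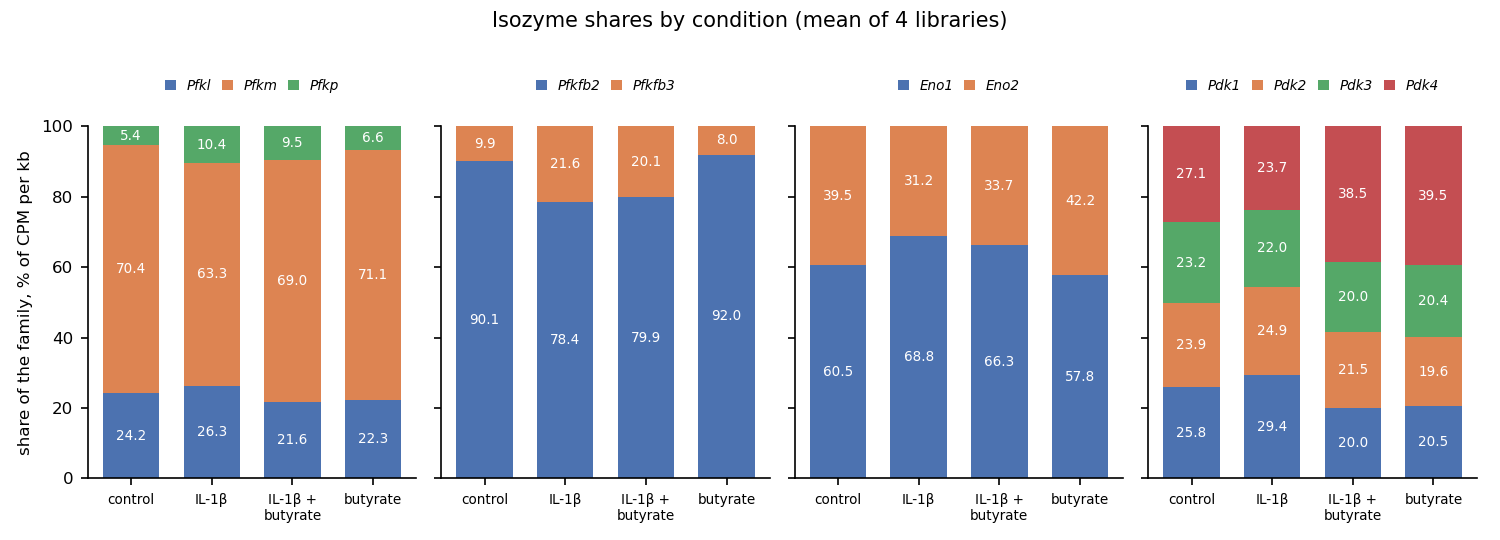
Share of each isozyme in the summed CPM per kb of its family (y axis, percent, mean of 4 libraries) in the 4 conditions (x axis) for phosphofructokinase, the fructose 2,6-bisphosphate enzymes, enolase and the pyruvate dehydrogenase kinases. Pfkp and Pfkfb3 take larger shares in both conditions with IL-1β (10.4% and 9.47% for Pfkp against 5.37% in control islets), and Pdk4 takes larger shares in both conditions with butyrate (38.5% and 39.5% against 27.1%).

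Idh1 (ENSMUSG00000025950, chr1:65158616-65186500), the cytosolic isocitrate dehydrogenase that supplies NADPH, was at 81.4, 72.9, 62.2 and 62.4 CPM in control islets and 46.2, 44.2, 42.6 and 42.8 CPM with butyrate (log2 fold change -0.67, SE 0.10, adjusted p = 6.7e-05). With IL-1β it was at 92.0, 86.7, 77.5 and 70.0 CPM, and with both agents at 56.9, 52.2, 48.1 and 45.9 CPM (log2 fold change -0.68, SE 0.10, adjusted p = 4.9e-05). The 8 libraries with butyrate all lay below the 8 without it, though the spread in control and IL-1β islets was wide. The related mitochondrial Idh2 was not called for butyrate in either setting (-0.05 and 0.07, adjusted p = 0.377 and 0.240).

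Aldoc (ENSMUSG00000017390, chr11:78322968-78327781), the brain-type aldolase, was at 10.1, 10.9, 9.22 and 9.20 CPM in control islets and 19.4, 17.3, 15.1 and 13.3 CPM with butyrate (log2 fold change 0.72, SE 0.09, adjusted p = 1.8e-06). With IL-1β it was at 10.5, 12.7, 9.90 and 11.5 CPM, and with both agents at 17.3, 17.5, 17.2 and 17.0 CPM (log2 fold change 0.62, SE 0.09, adjusted p = 9.8e-06). The butyrate islets were spread out and those with both agents were almost equal, and all 8 lay above the 8 libraries without butyrate. Over the 23 alternatives, which include leaving out butyrate replicate 1, the log2 fold change for butyrate alone was 0.62 to 0.81 and the call held. Aldoa stayed far more abundant, and the share of Aldoc in the pair was 2.15 ± 0.108% in control islets and 3.95 ± 0.334% with butyrate. Eno2, the enolase of neurons and endocrine cells, also rose, from 49.0, 45.5, 46.6 and 44.3 CPM in control islets to 56.8, 55.7, 57.6 and 55.6 CPM with butyrate (log2 fold change 0.28, SE 0.05, adjusted p = 4.9e-05) and from 46.8, 42.6, 42.7 and 48.4 CPM with IL-1β to 53.3, 51.3, 52.3 and 52.0 CPM with both (log2 fold change 0.21, SE 0.05, adjusted p = 0.00156). Eno1 was not called for butyrate in either setting (adjusted p = 0.412 and 0.824).

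At the branch from pyruvate into the cycle, Pcx was at 144, 151, 143 and 154 CPM with butyrate, above the control range of 114 to 126 CPM (log2 fold change 0.30, SE 0.05, adjusted p = 1.7e-05). With both agents it was at 109, 111, 120.3 and 116 CPM, above all IL-1β libraries (log2 fold change 0.27, SE 0.05, adjusted p = 8.0e-05). Me2, the mitochondrial NAD-dependent malic enzyme, was at 31.3, 28.0, 30.4 and 28.1 CPM in control islets and 22.0, 23.9, 24.0 and 25.5 CPM with butyrate (log2 fold change -0.30, SE 0.06, adjusted p = 1.4e-04). It was at 32.8, 32.1, 32.0 and 30.6 CPM with IL-1β and 24.3, 25.6, 26.5 and 26.4 CPM with both (log2 fold change -0.31, SE 0.06, adjusted p = 9.2e-05), so it fell without overlap in both settings. Idh3a, the catalytic subunit of the NAD-dependent isocitrate dehydrogenase, was at 65.0, 62.8, 62.0 and 57.9 CPM in control islets and 56.2, 55.3, 49.8 and 50.2 CPM with butyrate (log2 fold change -0.23, SE 0.05, adjusted p = 0.00173). It was at 64.5, 64.3, 58.5 and 59.5 CPM with IL-1β and 49.6, 55.6, 52.0 and 50.3 CPM with both (log2 fold change -0.25, SE 0.05, adjusted p = 7.3e-04), and it fell without overlap in both settings too. The other subunits Idh3b and Idh3g had log2 fold changes of -0.04 to 0.00 for butyrate in these settings and were not called.

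Of the butyrate effects on Gpi1 only 1 was called, that of butyrate added to IL-1β, where its level of 127, 129, 123 and 118 CPM with both agents lay below all IL-1β libraries (log2 fold change -0.33, SE 0.06, adjusted p = 1.3e-04). With the highest IL-1β library, replicate 2, left out the log2 fold change was -0.25. Without IL-1β the log2 fold change was -0.21 and just missed the threshold (adjusted p = 0.0107), and the difference between the settings was not called (interaction -0.12, adjusted p = 0.859). Pfkp was called for butyrate alone, with 44.3, 37.9, 36.2 and 33.2 CPM against 27.4 to 32.3 CPM in control islets (log2 fold change 0.38, SE 0.08, adjusted p = 0.00145), and not with IL-1β (-0.15, adjusted p = 0.144). Butyrate replicate 1 was the highest, and the call for butyrate alone held in all 23 alternatives, with log2 fold changes of 0.29 to 0.44. Smaller changes called for butyrate alone were those of Pfkfb2 (0.20), Pdha1 (0.15), Pdhb (-0.20), Dlat (-0.18) and Mdh2 (-0.17, the mitochondrial malate dehydrogenase). None of these genes was called for butyrate added to IL-1β. There Pdha1, Pdhb, Dlat and Mdh2 moved in the same direction as without it (adjusted p = 0.019, 0.0178, 0.0211 and 0.0256), and Pfkfb2 was at 0.01 (adjusted p = 0.924).

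Several of the small calls for butyrate alone were not stable. Of the 23 alternatives, 10 lost the call of Pdha1, 9 that of Pfkfb2, 8 that of Dlat, 5 that of Pdhb, 2 that of Idh3a and 1 that of Mdh2, with a highest adjusted p of 0.0790 for Pdha1, and Map3k15, which overlaps Pdha1 on the other strand and had 3355 to 9035 counts, fell by 0.71 with butyrate. Leaving out butyrate replicate 4 reduced the calls from 14 to 9. For butyrate with IL-1β the call of Eno2 alone was lost, without IL-1β replicate 3 (adjusted p = 0.0144), and leaving out IL-1β replicate 4 raised the calls from 9 to 15. The split between directions depended on the scaling: for butyrate alone 7 raised and 7 lowered became 10 and 4 with upper-quartile scaling and 5 and 9 with library size only, and for butyrate with IL-1β 4 raised and 5 lowered became 8 and 5, and 4 and 8. No call changed its direction. Markers moved with butyrate as well. All 9 proliferation markers were lowered in both settings, from a summed 120 to 228 CPM in control islets to 51.7 to 65.8 CPM, and of the 10 macrophage markers butyrate alone lowered 1 (median log2 fold change -0.29) and butyrate added to IL-1β lowered 5 (median -0.76). Of 6 alpha cell markers butyrate alone lowered 3 and raised none (summed 21263 to 24397 CPM in control islets and 18754 to 22165 CPM with butyrate), and butyrate added to IL-1β lowered 3 and raised 1. The 4 delta cell markers went from 1696 to 1995 CPM in control islets to 2395 to 2775 CPM with butyrate, with 1 called, and these markers' part in these results was not tested.

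Whether butyrate acted differently once the cytokine was present was tested directly as an interaction. None of the 42 members was called by edgeR (0.0968% of all genes were, 0.043% upward and 0.0538% downward), with 5 at an unadjusted p under 0.05, and DESeq2 called 1. The lowest adjusted p was that of Pfkp (0.0558), whose butyrate effect was lower by 0.53 on the log2 scale in the presence of IL-1β, with Suclg2 next (adjusted p = 0.0632, difference -0.33). The butyrate effect on Suclg2 was 0.18 without IL-1β and -0.14 with it, and neither was called. The interaction of Pfkp was called with DESeq2, without the filter on low counts and with the replicate block, and its adjusted p ranged from 5.75e-07 to 0.140 over 22 alternatives. Across the 42 genes the butyrate effects in the separate sets of libraries had a Pearson correlation of 0.868 and the same sign for 36, where all genes tested had 0.737 and the same sign for 78.8%. This is a description across genes, which are not independent replicates.

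**Figure D4:**
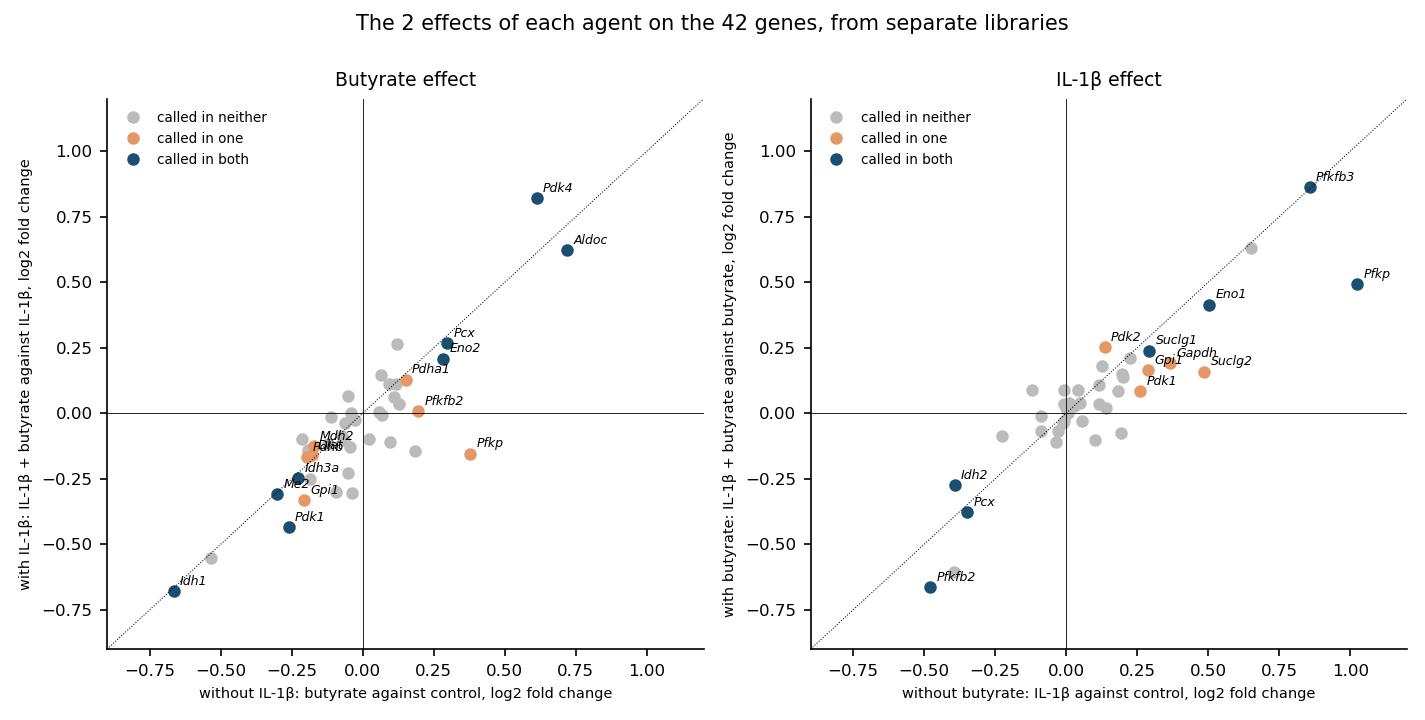
Log2 fold changes of the 42 genes for butyrate without (x axis) and with IL-1β (y axis), and for IL-1β without (x axis) and with butyrate (y axis), with the line of equal effects dotted and genes coloured by the number of comparisons that called them. The effects come from separate libraries: 8 genes are called for butyrate in both settings and 7 for IL-1β in both, and Pfkp lies furthest below the line in the left plot.

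The effect of IL-1β in the presence of butyrate, from both agents against butyrate, was added after the data were seen. It gave 5 members raised and 3 lowered, where 14.8% of all genes were called (9.92% raised and 4.86% lowered), and 20.5% of the 39 better expressed members where 20.4% of such genes were. The conditions did not overlap for 13 members, and for 24.2% of all genes. Pfkfb3 rose from 12.9, 10.3, 7.99 and 8.04 CPM with butyrate to 19.9, 17.5, 16.1 and 17.6 CPM with both (log2 fold change 0.86, SE 0.11, adjusted p = 4.5e-06). Pfkfb2 fell from 107, 106, 106 and 110.0 CPM to 65.4, 68.5, 70.1 and 67.1 CPM (log2 fold change -0.66, SE 0.06, adjusted p = 3.8e-10), so the opposite movement of the pair was present with butyrate too, without overlap for either gene. Pfkp (log2 fold change 0.49, SE 0.08, adjusted p = 6.8e-05), Eno1 (log2 fold change 0.42, SE 0.10, adjusted p = 0.00779) and Suclg1 (0.24) also rose. Pcx fell from 143 to 154 CPM to 109 to 120.3 CPM (log2 fold change -0.38, SE 0.05, adjusted p = 4.6e-07). Idh2 fell from 130.1, 123, 127 and 120.1 CPM to 104, 106, 102 and 101 CPM (log2 fold change -0.27, SE 0.04, adjusted p = 1.0e-05). Thus 7 of the 11 genes called without butyrate were called with it, all in the same direction. Of all genes called for IL-1β without butyrate 63.9% were likewise called with it, against 63.6% of the members. Those 7 were 7 of 8 called here, the other being Pdk2, a kinase of pyruvate dehydrogenase, at 17.4, 19.6, 18.1 and 20.2 CPM with butyrate and 22.5, 22.6, 23.7 and 20.9 CPM with both (log2 fold change 0.25, SE 0.07, adjusted p = 0.00569).  The Pdk2 libraries with both agents lay just above those with butyrate. The calls of Eno1, Pdk2 and Suclg1 were lost in 11, 6 and 2 of the 23 alternatives, leaving out replicate 2 of the islets with both agents left 5 calls, and library size only gave 13 raised and 3 lowered where upper-quartile scaling gave 3 and 4. Across the 42 genes the IL-1β effects without and with butyrate correlated with a Pearson r of 0.893 and had the same sign for 34 (81.0%), where all genes tested had 0.846 and the same sign for 76.3%, as a description only.

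Islets with both agents were also compared with control islets, which asks what remained of the change. Of the 42 members 8 were raised and 5 lowered, 31.0%, where 30.6% of all genes were called (15.8% raised and 14.8% lowered), and 33.3% of the 39 better expressed members where 39.8% of such genes were. The conditions did not overlap for 19 members and for 38.5% of all genes, so the members changed about as often as other genes. Pfkp was at 53.6, 58.9, 50.9 and 49.8 CPM, well above all control libraries (log2 fold change 0.87, SE 0.08, adjusted p = 1.9e-08), and Pfkfb3 was at 19.9, 17.5, 16.1 and 17.6 CPM (log2 fold change 0.74, SE 0.11, adjusted p = 1.2e-05). Pfkfb2 was at 65.4, 68.5, 70.1 and 67.1 CPM and remained below all control libraries (log2 fold change -0.47, SE 0.06, adjusted p = 1.1e-07). The phosphofructokinase step thus kept the pattern it had with IL-1β alone. The libraries of Aldoc and Pdk4 given above for butyrate also exceeded control here (log2 fold change 0.81, SE 0.09, adjusted p = 9.1e-08 for Aldoc and log2 fold change 0.70, SE 0.06, adjusted p = 1.0e-09 for Pdk4). Eno1 (0.54), Suclg2 (0.34), Suclg1 (0.30) and Eno2 (0.17) were also raised. Idh1 (log2 fold change -0.45, SE 0.10, adjusted p = 0.00107) and Idh2 (log2 fold change -0.33, SE 0.04, adjusted p = 3.1e-07) were lowered, as were Idh3a (log2 fold change -0.26, SE 0.05, adjusted p = 3.0e-04) and Me2 (-0.20). The calls of Eno2 and Me2 were lost in 7 and 5 of the 23 alternatives. Idh2 was at 104, 106, 102 and 101 CPM and Eno1 at 126, 127, 114 and 105 CPM with both agents, and neither gene's range overlapped that of control. Beta cell markers summed to 138649 to 170863 CPM and duct cell markers to 672 to 967 CPM with both agents, against the control ranges above and 223709 to 263171 and 456 to 517 CPM with butyrate. Of the macrophage markers 6 were raised and C1qa lowered against control (median log2 fold change 1.19), and 9 were raised and C1qa lowered against butyrate (1.57). Of the alpha cell markers 3 were lowered against control, and 3 were raised and 2 lowered against butyrate, and the part of these markers was not tested.

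Of the 11 genes that IL-1β changed, 3 were called the opposite way for butyrate added to IL-1β. These were Gpi1 and Pdk1, which IL-1β raised, and Pcx, which it lowered. The 3 are 27.3% of the 11, where 22.4% of all genes called for IL-1β were called the opposite way, so the share was close to the background. The 2 comparisons use the same IL-1β libraries with opposite sign, which favours calls in opposite directions. Replicate 2 of the IL-1β islets was the highest of its condition for Gpi1 and Pdk1 and the lowest for Pcx. In islets with both agents none of the 3 was called against control (Gpi1 -0.04, Pdk1 -0.17 and Pcx -0.08, adjusted p = 0.639, 0.0201 and 0.191). For Pdk1 the level with both agents was 51.4 ± 3.08 CPM (SD, n = 4) against 58.0 ± 2.66 CPM in control islets, and the highest library with both agents lay just above the lowest control library. In Pcx the ranges of both agents (109 to 120.3 CPM) and control (114 to 126 CPM) overlapped. Gapdh lost its call against control (0.14, adjusted p = 0.195) without a call for butyrate (-0.23, adjusted p = 0.0372). The other 7 (Pfkp, Pfkfb2, Pfkfb3, Eno1, Idh2, Suclg1 and Suclg2) kept a call in the direction of IL-1β, 63.6% of the 11 where 68.3% of all genes called for IL-1β did. These comparisons share the control libraries, which favours calls in the same direction. Butyrate also raised Pcx and lowered Pdk1 in islets without IL-1β, so these changes were seen with and without the cytokine.

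None of the 5 comparisons between conditions called 20 of the members: Hk2, Pfkl, Pfkm, Aldoa, Tpi1, Pgk1, Pgam1, Pkm and Ldhb of glycolysis, Dld and Pdk3 around pyruvate dehydrogenase, Me3, and Cs, Idh3b, Idh3g, Ogdh, Dlst, Sucla2, Fh1 and Mdh1 of the citric acid cycle and its cytosolic counterparts. They are 47.6% of the members, where 57.8% of all genes tested, and 45.0% of those with at least 10 CPM, were called in none. An alternative fit with a replicate block called 7 of these 20 in at least 1 comparison. For several of the 20 the interval in the main fit was narrow. Citrate synthase, Cs, had a 95% interval of -0.07 to 0.09 on the log2 scale for IL-1β, Idh3b had -0.12 to 0.06 for butyrate and Idh3g -0.10 to 0.10 for butyrate with IL-1β. With butyrate, however, Cs was higher without overlap in the absence and presence of IL-1β, without a call (adjusted p = 0.0322 and 0.0448). For other genes the interval was wide: Fh1 was at 296, 260.1, 240.3 and 248.9 CPM in control islets and 257, 224, 162 and 153 CPM with IL-1β. Replicates 3 and 4 of the IL-1β islets were far below replicates 1 and 2, and the log2 fold change of -0.40 had an interval of -0.70 to -0.10 (adjusted p = 0.0790). Fh1 was also low with both agents, at 209, 203, 166 and 157 CPM, and there the 4 libraries lay below the control range without a call (adjusted p = 0.0182). With butyrate Fh1 was at 301, 275, 268 and 274 CPM, above all libraries with both agents, also without a call. In the alternative edgeR fit with a replicate block, Fh1 was called as lowered against control with IL-1β (adjusted p = 0.00494) and with both agents (8.13e-04). The same fit called it as lowered with both agents against butyrate (log2 fold change -0.62, adjusted p = 3.95e-04). Aldoa and Pkm missed the threshold for butyrate with IL-1β (log2 fold changes -0.25 and -0.30, adjusted p = 0.0107 and 0.0107), although the conditions did not overlap. Their calls appeared in 10 of the 23 alternatives each. Hk2 and Me3, at under 4 CPM in every library, were the least counted members, with 22 to 91 counts in a library. With IL-1β the interval was -0.31 to 0.54 for Hk2 and 0.24 to 1.06 for Me3 (adjusted p = 0.756 and 0.0222).

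The other genes of the pathway, 45 in a list of further isozymes, transporters, shuttles and regulators of which 44 were tested, moved in both directions too. With IL-1β 7 were raised and 5 lowered. The largest called rises were those of the fructose-bisphosphatases Fbp2 (0.92) and Fbp1 (0.67), which run the phosphofructokinase step in reverse, of the cytosolic malic enzyme Me1 (0.72) and of Gpd1 (0.41), the cytosolic glycerol phosphate dehydrogenase. The glucose transporter Slc2a2 (-0.73), Hk1 (-0.64), the mitochondrial glycerol phosphate dehydrogenase Gpd2 (-0.34) and Tigar (-0.25), a fructose 2,6-bisphosphatase, fell most. With butyrate alone 5 were raised and 9 lowered, among them the enolase Eno3 (0.36) on one side and Fbp2 (-1.35), Me1 (-0.56) and Fbp1 (-0.40) on the other. With butyrate added to IL-1β 4 were raised and 6 lowered, among them Fbp2 (-1.82), Me1 (-0.52) and Gpd1 (-0.41), each of which IL-1β had raised. Here too the 2 comparisons share the IL-1β libraries, which favours opposite directions. In islets with both agents 6 were raised and 9 lowered against control, led by the muscle phosphoglycerate mutase Pgam2 (0.77) and Fbp1 (0.72), and by Slc2a2 (-1.04) and Fbp2 (-0.90). Against butyrate they gave 7 raised and 6 lowered, led by the hexokinase Hk3 (1.61) and Fbp1 (1.12), and by Slc2a2 (-1.07). None of the 44 was called in the interaction. The shares called were 27.3% with IL-1β (17.8% of all genes), 31.8% with butyrate alone (19.9%) and 22.7% with butyrate added to IL-1β (19.5%). With both agents they were 34.1% against control (30.6% of all genes) and 29.5% against butyrate (14.8%). Ldha, the lactate dehydrogenase that beta cells keep low, had 32 to 52 counts in the control libraries and 48, 212, 78 and 124 counts with IL-1β. In CPM it was at 1.49 to 2.25 and at 2.48, 10.3, 4.04 and 4.47, and at 3.33 to 5.47 with both agents and 2.15 to 5.83 with butyrate. The lactate exporter Slc16a3, of the hypoxia list described next, had 3 to 14 and 12, 99, 22 and 28 counts. Its CPM were 0.140 to 0.584 in control islets and 0.620, 4.82, 1.14 and 1.01 with IL-1β. For both genes every library with IL-1β, alone or with butyrate, lay above all control libraries in CPM. Neither was called for IL-1β against control (log2 fold changes 1.42 and 2.18, adjusted p = 0.0305 and 0.0648), and without replicate 2 of the IL-1β islets the log2 fold changes were 0.90 and 1.167. The highest of each was replicate 2 of the IL-1β islets, the library that was high for glycolysis.

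A list of 18 other hypoxia-inducible genes, of which 16 were tested, moved in both directions. With IL-1β 1 was raised, the prolyl hydroxylase Egln3 (1.95), and 2 were lowered, Higd1a (-0.46) and Ndrg1 (-0.24), and the median of the list was 0.08 where all genes tested had -0.03. The largest rise with IL-1β was that of Slc16a3 given above (2.18), which was not called. With butyrate added to IL-1β 1 was raised, the growth factor Vegfa (0.18), and 3 were lowered, Ankrd37 (-1.01), the histone demethylase Kdm3a (-0.47) and Ndrg1 (-0.33). Butyrate alone called the same 4 genes, Vegfa as raised (0.29) and Ankrd37 (-0.86), Kdm3a (-0.35) and Ndrg1 (-0.24) as lowered. With both agents against control 4 were raised and 4 lowered, Egln3 leading the rises (1.95) and Ankrd37 the falls (-1.03), and against butyrate 2 were raised and 2 lowered, Egln3 again first (1.65). Of the 16 tested, 18.8% were called with IL-1β (17.8% of all genes), 25% with butyrate added to it (19.5%) and 25% with butyrate alone (19.9%). With both agents the shares were 50% against control (30.6% of all genes) and 25% against butyrate (14.8%).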

How the data were processed

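RNA of 16 islet cultures, 4 in each of 4 conditions, was sequenced. The authors demultiplexed with bcl2fastq 2.19.1 and aligned to GRCm38.p5 (mm10) with STAR 2.5.3a, per the study's methods and the submitters' processing notes, and deposited whole, unnormalized read counts per Ensembl gene, with FastQC 0.11.7, MultiQC 1.7 and DESeq2 also named. The annotation release, strand setting and read filters are not given in the sources used here. No molecular identifiers are named there, so counts may include copies made by PCR. The count table held 0 columns of other samples.

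From the deposited counts, edgeR 4.0.16 (R 4.3.3) fitted all 16 libraries with 1 coefficient per condition (TMM scaling, low-count filter by condition with its default settings, robust quasi-likelihood test, two-sided). Benjamini-Hochberg adjustment ran over the 18587 genes tested, separately for each comparison, and genes with an adjusted p under 0.01 were called. Every adjusted p in the text comes from this fit, or from an alternative named beside it. The 52636 rows included 10560 with no count. Symbols, positions and exon lengths came from GENCODE M21 (GRCm38), which holds 52403 of the identifiers. Aldoa has a second identifier with 3 to 11 counts per library, which was not used. CPM per kb used the union of a gene's exons, with the longest transcript as an alternative. Promoter windows came from RefSeq (GRCm38.p6).

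Replicates of a condition differed by more than counting error (chi-square per gene from 1.72 to 13.5 over the pairs of libraries), and all 16 were used as separate samples. The labels call them replicates and the study describes 4 independent experiments, each library holding islets pooled from several mice. The p-values measure the spread between such pools.

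The members and gene lists were chosen with earlier results of these data known, so the counts over them describe these samples and are no independent support. In each comparison the called members with the 4 largest rises and the 4 largest falls were given with the values of all libraries, standard error and adjusted p, and Gapdh, Fh1 and the other members were chosen for mention after their values were seen. Alternatives were upper-quartile scaling, DESeq2 size factors, library size only, no filter, a replicate block, DESeq2 1.42.0, fits of the compared conditions alone, a threshold of 0.05 and leaving out each library. The fit was tested on simulated data. Values of 1 further gene of the pathway list are not reported here.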

Additional observations from a re-analysis of the deposited data

Results flagged for a closer look

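In 6 of 168 groups of 4 libraries (42 genes in 4 conditions) the highest or lowest library lay further from the rest than Dixon's limit at 95% allows, where chance gives about 1 in 20. Tpi1, triosephosphate isomerase, was at 124 CPM in replicate 2 of the IL-1β islets and at 84.4 to 91.0 CPM in the other 3, the library that was the highest of its condition for 13 of 17 glycolytic genes. Dlst, a subunit of the oxoglutarate dehydrogenase complex, was at 129.5 CPM in replicate 1 of the IL-1β islets against 119 to 121 CPM. Pdk1 was at 54.4 CPM in replicate 1 of the butyrate islets against 45.5 to 47.0 CPM. Pgam1, phosphoglycerate mutase, was at 22.0 CPM in replicate 3 of the islets with both agents against 20.3 to 20.6 CPM. Me3 stood apart in replicate 3 of the butyrate islets, at 1.57 CPM against 1.105 to 1.16 CPM, and in replicate 4 of those with both agents, at 1.83 CPM against 1.95 to 1.97 CPM. The causes were not tested.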

How the results depend on the processing

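Of the 55 calls of members, 43 held in all 23 alternatives other than the threshold, 12 were lost in at least 1 and none changed direction. The count for IL-1β against control (11) was 16 without the filter on low counts and 13 with library size only, and 11 to 12 when single libraries were left out. For butyrate added to IL-1β (9) it was 14 without the filter on low counts, 14 with DESeq2, 23 at a threshold of 0.05, and 9 to 15 with single libraries left out. For butyrate against control (14) it was 9 to 16 with single libraries left out. For both agents against control (13) it was 20 at a threshold of 0.05 and 11 to 16 with single libraries left out. For both agents against butyrate (8) it was 16 with library size only and 5 to 9 with single libraries left out. The interaction (0) gave 1 without the filter and 1 with DESeq2, and 0 in every fit without a library. The causes were not tested.

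The replicate numbers were not taken as pairs in the main fit, since no label says that a number marks a shared experiment. The running order in the column headers goes replicate by replicate, with the 4 conditions of each side by side. The 24 correlations between the deviations of same-numbered libraries were nevertheless all positive, from 0.0535 to 0.397, and 17 exceeded 0.1. Libraries with different numbers had correlations of -0.293 to 0.170, and 14 of 16 libraries correlated best with their own number. Numbers may therefore mark shared experiments, and the main fit leaves variation between them in its p-values. With the replicate block the counts were 15 for IL-1β, 19 for butyrate added to IL-1β, 18 for butyrate, 18 for both agents against control, 12 for both against butyrate and 2 for the interaction. Of the 20 members called in none of the 5 comparisons, 7 were called in at least 1 with the block (Pfkl, Aldoa, Pkm, Me3, Ogdh, Dlst and Fh1). Hk2 and Me3 had the fewest counts, 22 to 91 in a library.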
